A study of Mus musculus with 2 samples.

Results

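Iron and heme handling was followed here through 8 genes of the single-cell mRNA count matrix, out of 25909 genes listed in it. They were chosen by name as a list of known function, with earlier results of these data known. Their counts and medians beside all genes are therefore descriptions only. All 8 were present: Cd163, Tfrc and Slc11a1 for uptake, Hmox1 and Blvrb for heme breakdown, Fth1 and Ftl1 for storage, and Slc40a1 for export. Macrophages of the liver and spleen take up old red blood cells and free haemoglobin, open the heme ring with heme oxygenase, and either store the iron in ferritin or return it to the plasma through ferroportin. Kupffer cells, the macrophages that reside in the liver sinusoids, do much of this work in the liver. Several of the genes are also controlled after transcription by cellular iron, so an mRNA count does not measure the protein.

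The cells came from the liver of 4 mice, 1 per group, that were sorted as CD45.2+ CD11b+ cells lacking lymphoid and eosinophil surface markers. One Egr2fl/fl mouse and one Lyz2Cre/+.Egr2fl/fl mouse were fed normal diet (ND), and one of each genotype was fed CDA-HFD, a high-fat diet without choline and with defined amino acids that gives steatohepatitis, for 7 weeks. Both genotypes carry loxP-flanked Egr2 alleles, and the Lyz2Cre/+.Egr2fl/fl mice also carry Cre at the Lyz2 locus, which is active in monocytes, macrophages and neutrophils. The methods give male mice of 6 to 12 weeks at the start of CDA-HFD feeding, and the strain background of the floxed and Cre lines is not given in the sources used here. The cells of each mouse were marked with their own hashtag and pooled, with 3000 cells loaded per mouse on ND and 9000 per mouse on CDA-HFD. Each group was 1 mouse, so no replicate error can be given and no test was made. All intervals below are 95% intervals that cover counting error only, and a difference between mice may be a difference between individuals.

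The iron-responsive elements that tie part of this group to cellular iron, to which iron-regulatory proteins are known to bind, are shown first. These are short hairpins in untranslated regions (UTRs): in a 5′ UTR they are known to hold back translation when iron is low, and in the 3′ UTR of Tfrc they are known to protect the mRNA from decay. The GENCODE vM21 transcripts (GRCm38) were searched for the loop CAGTGN, with N other than G. It had to be enclosed by 5 paired bases on each side and preceded by a C, whose own pairing was not checked. The sites below are 29 bases long, printed 5′ to 3′ on the strand of the gene as DNA, with the 6-base loop in capitals.
Fth1, 5′ UTR, chr19:9982732-9982760, plus strand: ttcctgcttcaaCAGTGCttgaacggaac
Ftl1, 5′ UTR, chr7:45459779-45459807, minus strand: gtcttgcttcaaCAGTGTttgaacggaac
Slc40a1, 5′ UTR, chr1:45925465-45925493, minus strand: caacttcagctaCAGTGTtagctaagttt
Tfrc, 3′ UTR, chr16:32631219-32631247, plus strand: aattatcggaagCAGTGCcttccataatt
Tfrc, 3′ UTR, chr16:32631598-32631626, plus strand: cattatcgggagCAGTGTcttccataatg
Tfrc, 3′ UTR, chr16:32631663-32631691, plus strand: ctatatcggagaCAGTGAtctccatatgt
Tfrc, 3′ UTR, chr16:32631710-32631738, plus strand: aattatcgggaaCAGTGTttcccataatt
Such a hairpin was found in the 5′ UTR of 3 of the 8 genes and in the 3′ UTR of 1, against 0.11% of the 20088 genes with a 5′ UTR and 0.47% of the 20841 genes with a 3′ UTR that were searched. The 4 sites of Tfrc lie within the same 3′ UTR, which has 2458 bases. The search was strict and may have missed elements, and binding by iron-regulatory proteins was not measured. No match was found for Hmox1, Cd163, Slc11a1 and Blvrb, which says only that these letters do not occur in their annotated UTRs. The genes themselves lie at chr1:45908068-45926523 (Slc40a1), chr1:74375195-74386062 (Slc11a1), chr6:124304656-124330527 (Cd163), chr7:27447978-27466144 (Blvrb), chr7:45457944-45459884 (Ftl1), chr8:75093621-75100589 (Hmox1), chr16:32608920-32632794 (Tfrc) and chr19:9980598-9985098 (Fth1).

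The matrix gave 15384 cells with a mouse and at most 25% mitochondrial counts, with total counts between 27840300 and 90124521 per mouse and no barcode shared between mice. Cells were assigned to classes by marker lists that hold none of the 8 genes. Kupffer cells numbered 736 and 798 in the ND-fed Egr2fl/fl and Lyz2Cre/+.Egr2fl/fl mice but 17 and 38 in the CDA-HFD-fed mice, whereas macrophages numbered 86 and 73 on ND and 1347 and 1485 on CDA-HFD. The 17 and 38 cells had 96.6 and 118 CPM of Timd4, a marker of resident Kupffer cells, against 673 and 644 CPM on ND, so the label holds for them only in part. On ND, 69.8% and 82.2% of the macrophages fell in the cluster led by Tmem119, Olfml3 and Pf4. On CDA-HFD, 35.3% and 37.8% did, and 46.0% and 40.7% fell in a cluster led by Mmp12, F7 and Emp1. The targeted gene Egr2 stood, in macrophages, at 77.6 CPM (ND) and 56.9 CPM (CDA-HFD) in Egr2fl/fl and at 5.26 CPM (ND) and 11.4 CPM (CDA-HFD) in Lyz2Cre/+.Egr2fl/fl mice.

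Levels below are counts summed over the cells of a class in a mouse per 1000000 counts of the same cells (counts per 1000000, CPM). Values are given in the order ND Egr2fl/fl, ND Lyz2Cre/+.Egr2fl/fl, CDA-HFD Egr2fl/fl, CDA-HFD Lyz2Cre/+.Egr2fl/fl.

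Among the uptake genes, Cd163, the scavenger receptor for haemoglobin bound to haptoglobin, was a gene of the ND Kupffer cells. In Kupffer cells it stood at 687 CPM (675 to 699), 758 CPM (745 to 771), 25.6 CPM (13.6 to 43.8) and 112 CPM (91.8 to 135). Both ND-fed mice lay far above both CDA-HFD-fed mice. In macrophages it stood at 31.9, 5.26, 3.18 and 3.57 CPM, and in monocytes between 2.79 and 12.9 CPM. In the ND Egr2fl/fl mouse 5 cells held 89.2% of the macrophages' 37 counts, so that the value there rests on few cells. After every cell was thinned to 5000 counts, 81.7% and 80.8% of ND Kupffer cells had a count of Cd163. Of the macrophages, 7.895%, 2.82%, 1.60% and 1.38% did in the 4 mice, against 0%, 3.57%, 7.41% and 0% of the 27 to 55 lymphoid cells (T, B and NK cells), a class that should lack the gene. The median depth before thinning was 9706 to 21020 counts per macrophage and 7045 to 7624 per lymphoid cell.

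Tfrc, the transferrin receptor through which cells take up plasma iron, had the fewest counts of the 8 genes. In Kupffer cells it stood at 24.1 CPM (22.0 to 26.5), 28.5 CPM (26.1 to 31.1), 57.1 CPM (38.3 to 82.1) and 54.9 CPM (41.1 to 71.8). The order was thus the opposite of Cd163, with the CDA-HFD-fed mice above the ND-fed mice, although on 29 and 53 counts. In macrophages it stood at 1.73, 5.26, 8.59 and 10.9 CPM, the first of these on 2 counts in total. Its share of thinned cells with a count was 0% to 3.596% in macrophages and 0% to 5.45% in lymphoid cells. Lymphoid cells can express Tfrc and are no measure of its background, and neutrophils had 0 counts in both ND-fed mice and 34 and 24 counts on CDA-HFD.

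Slc11a1 encodes NRAMP1, the divalent metal transporter of the phagosome membrane, and it was spread most evenly over the classes of the uptake genes. Kupffer cells had 380, 349, 290 and 350 CPM, macrophages 217, 224, 324 and 316 CPM, and Ly6Clo monocytes 209, 233, 266 and 267 CPM. Ly6Chi monocytes were lowest in every mouse, at 107, 87.7, 135 and 162 CPM. In both CDA-HFD-fed mice the counting intervals of Kupffer cells and macrophages overlapped.

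Of the heme breakdown genes, Hmox1 encodes heme oxygenase-1, the inducible enzyme that releases iron, biliverdin and carbon monoxide from heme. In Kupffer cells it stood at 1252 CPM (1235 to 1268), 1057 CPM (1042 to 1072), 587 CPM (522 to 658) and 401 CPM (362 to 443). In macrophages it stood at 227 CPM (200 to 256), 143 CPM (120 to 169), 426 CPM (419 to 434) and 453 CPM (446 to 461). Kupffer cells were thus highest on ND and lower on CDA-HFD, while macrophages went the other way, and in the CDA-HFD Lyz2Cre/+.Egr2fl/fl mouse the macrophages lay above the Kupffer cells. Ly6Clo monocytes had 192, 134, 608 and 672 CPM and Ly6Chi monocytes 86.8, 109, 353 and 224 CPM, so both CDA-HFD-fed mice lay above both ND-fed mice in each monocyte class. On CDA-HFD the Ly6Clo monocytes had the highest value of these classes in both mice, though in the Egr2fl/fl mouse their interval (581.5 to 636) lay within that of the Kupffer cells. The counts were concentrated in few cells: 5 cells held 66.9% of the Hmox1 counts of the macrophages in the ND Egr2fl/fl mouse and 33.2% and 37.0% of those of the Ly6Clo monocytes on CDA-HFD, and the median Ly6Clo monocyte had 0 counts of the gene in all 4 mice.

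Blvrb encodes biliverdin reductase B, which reduces flavins and one isomer of biliverdin. Kupffer cells had 1062, 978, 865 and 821 CPM, macrophages 413, 351, 640 and 587 CPM, Ly6Chi monocytes 150, 140, 101 and 127 CPM, and Ly6Clo monocytes 116, 171, 201 and 152 CPM. Kupffer cells and then macrophages were the highest classes in all 4 mice, and the monocyte classes changed places between mice.

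The storage genes Fth1 and Ftl1 encode the heavy and light chains of ferritin, the heavy chain being the one that oxidises iron for storage. Fth1 stood at 7182, 6083, 5912 and 6208 CPM in Kupffer cells, at 7954, 5722, 16570 and 14100 CPM in macrophages, at 5655, 4875, 7842 and 7699 CPM in Ly6Chi monocytes and at 3855, 3102, 10090 and 9875 CPM in Ly6Clo monocytes. In macrophages and in both monocyte classes the CDA-HFD-fed mice lay above the ND-fed mice with no overlap, and in Kupffer cells the groups overlapped. Ftl1 stood at 15120, 15070, 16070 and 14510 CPM in Kupffer cells, at 10530, 10700, 21880 and 21040 CPM in macrophages, at 6069, 5862, 8529 and 9006 CPM in Ly6Chi monocytes and at 6456, 6901, 11230 and 12000 CPM in Ly6Clo monocytes. On CDA-HFD the macrophages were therefore the highest of the 4 classes for both chains, although neutrophils lay above them for Fth1, at 17580 and 15890 CPM, and below them for Ftl1, at 14410 and 13130 CPM. Neither gene separates from near-identical copies with certainty: the matrix lists Fth-ps2, Fth-ps3, Ftl1-ps1, Ftl1-ps2 and Ftl2-ps, whose reads may be split with them. For Ftl1 no cell had a value from 1 to 10, and 249 cells had 0, so that low values of it are absent from the deposited matrix.

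Slc40a1 encodes ferroportin, the iron exporter that hepcidin removes from the cell surface, and it differed widely between the classes. Kupffer cells had 2114 CPM (2093 to 2135), 1719 CPM (1700 to 1738), 1208 CPM (1114 to 1308) and 1011 CPM (948 to 1076). Macrophages had 153, 175, 92.9 and 109 CPM, Ly6Clo monocytes 20.7, 22.0, 14.9 and 26.8 CPM, and Ly6Chi monocytes 10.7, 6.14, 9.20 and 9.34 CPM. The order Kupffer cells, macrophages, Ly6Clo monocytes, Ly6Chi monocytes held in all 4 mice, although the intervals of the 2 monocyte classes overlapped in each ND-fed mouse. Neutrophils, sorted with these cells, had 360, 304, 209 and 207 CPM of Slc40a1, which was above the macrophages in every mouse. Thinned to 5000 counts, 94.6% to 100% of Kupffer cells, 17.2% to 31.6% of macrophages and 1.18% to 6.96% of monocytes had a count. The share in lymphoid cells of the same mice was 0%, 7.14%, 3.70% and 5.26% of 55, 28, 27 and 38 cells, against 6.96%, 1.18%, 4.33% and 3.32% of Ly6Chi and 4.59%, 3.45%, 5.26% and 6.42% of Ly6Clo monocytes. With so few lymphoid cells, whether the monocyte share lies above background cannot be read from these shares.

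**Figure D1:**
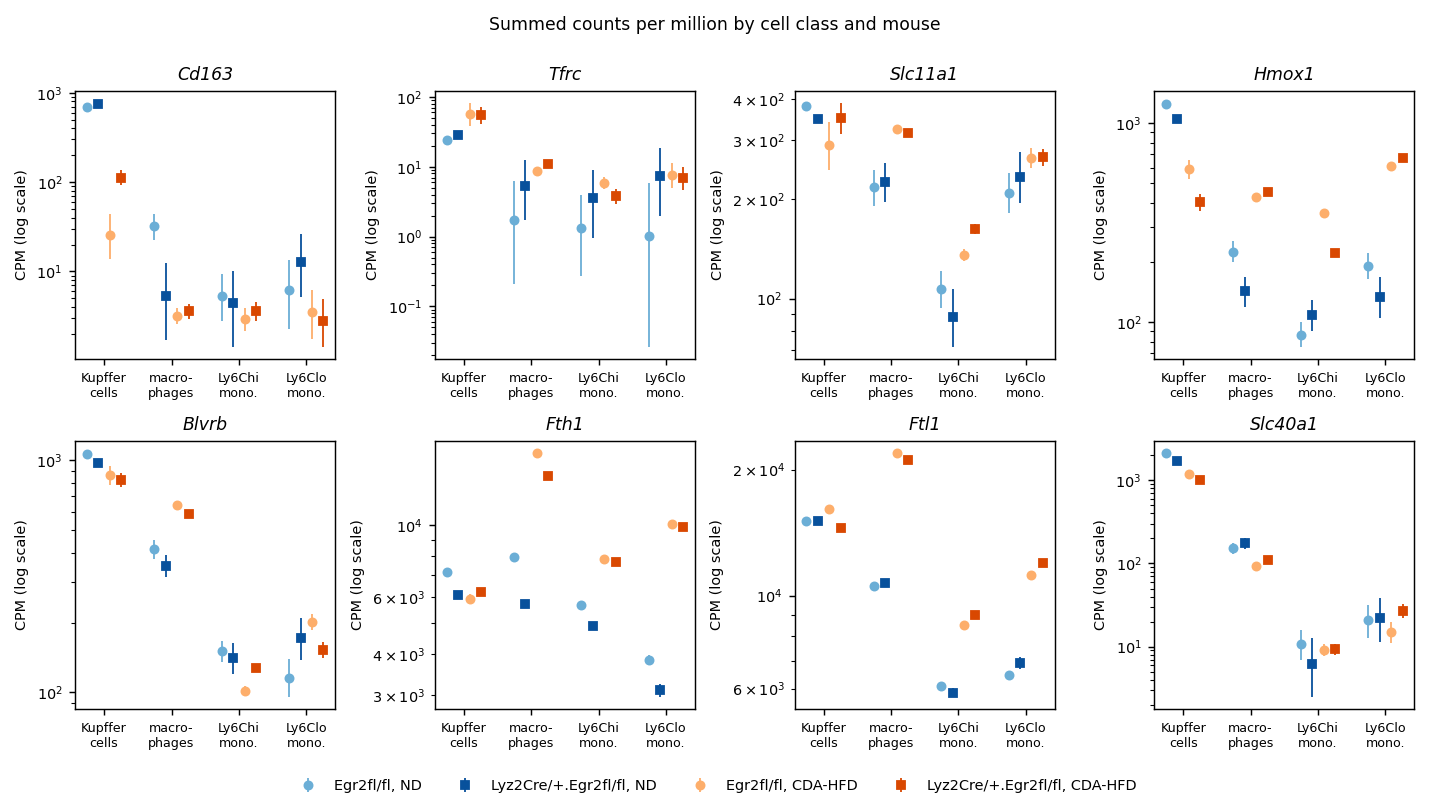
CPM (y axis, log scale, its range set per gene) of the 8 genes by cell class (x axis) with 1 point per mouse, and exact Poisson 95% intervals of the summed counts as bars. Kupffer cells of the ND-fed mice are the highest points for Cd163 (687 and 758 CPM), Hmox1 (1252 and 1057 CPM) and Slc40a1 (2114 and 1719 CPM), and macrophages of the CDA-HFD-fed mice for Fth1 (16570 and 14100 CPM) and Ftl1 (21880 and 21040 CPM).

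The comparison of Kupffer cells with macrophages within each ND-fed mouse asks which of these genes set resident cells apart from other macrophages. In both mice 6 of the 8 genes were at least 1.5-fold higher in Kupffer cells and none was 1.5-fold lower, where 45.3% and 46.8% of all genes with at least 50 summed counts lay past 1.5-fold in either direction. The members' median ratio was 4.04 and 4.10, against 1.02 and 1.02 over all genes. Slc40a1 was 13.85-fold higher (11.95 to 16.14) in the Egr2fl/fl mouse and 9.84-fold higher (8.45 to 11.5) in the Lyz2Cre/+.Egr2fl/fl mouse. Hmox1 was 5.52-fold (4.88 to 6.25) and 7.38-fold (6.24 to 8.81) higher. Cd163 was 21.5-fold (15.6 to 30.6) and 144-fold (61.7 to 444) higher, the latter against 5 macrophage counts. Blvrb was 2.57-fold and 2.79-fold higher, Slc11a1 1.75-fold and 1.56-fold, and Tfrc 14.0-fold (3.85 to 116) and 5.42-fold (2.31 to 16.8). Cd163 and Tfrc passed the limit of 50 summed counts only through the Kupffer cells, where they are high. Their macrophage counts were 37 and 5 for Cd163 and 2 and 5 for Tfrc. The ferritin chains were the exceptions, with ratios of 0.90 and 1.06 for Fth1 and of 1.44 and 1.41 for Ftl1. Ftl1 was past 1.5-fold in 4 of 11 alternative settings in the Egr2fl/fl mouse and in 3 of 11 in the other, with highest ratios of 1.64 and 1.56. The marker gate did not use these genes, but it separates cells that differ in many genes at once. Under the alternative settings the ratio ranged from 3.97 to 18.4 for Slc40a1 over both mice and from 2.41 to 13.4 for Hmox1, so that neither came below 1.5-fold. Cd163 ranged more widely, from 13.2 to 53.9 in the Egr2fl/fl mouse and from 6.17, under the stricter gate, to 190 in the other, well outside the counting interval, and Tfrc ranged from 5.96 to 15.7 and from 2.58 to 9.82. Slc11a1 came below it in 2 of 11 settings in the Egr2fl/fl mouse and in 4 of 11 in the other, with lowest ratios of 1.41 and 1.36.

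Counts of other cells moved with this difference. The 5 haemoglobin and other erythroid genes of the marker list present in the matrix summed to 486 and 318 CPM in ND Kupffer cells, with none of the 5 at 0, and to 0 CPM in ND macrophages and in the Kupffer cells of the CDA-HFD-fed mice, with all 5 at 0. Of the hepatocyte list 10 genes were present, and they summed to 928 and 1348 CPM in ND Kupffer cells and to 413 and 500 CPM in ND macrophages, with Alb at 0 in both classes. Without the tenth of cells richest in these counts in each mouse, all 6 genes stayed at least 1.5-fold higher in Kupffer cells in both mice.

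Within the CDA-HFD-fed mice, macrophages were compared with Ly6Chi monocytes, the cells from which they are known to derive. In the Egr2fl/fl mouse 5 of 8 genes and in the Lyz2Cre/+.Egr2fl/fl mouse 7 of 8 were at least 1.5-fold higher in macrophages and none was lower, with 33.3% and 30.9% of all genes past 1.5-fold. Slc40a1 was 10.1-fold (8.54 to 12.0) and 11.7-fold (10.01 to 13.68) higher in macrophages and Blvrb 6.34-fold (6.02 to 6.67) and 4.61-fold (4.41 to 4.81). Ftl1 was 2.57-fold and 2.34-fold higher, Fth1 2.11-fold and 1.83-fold, and Slc11a1 2.39-fold and 1.95-fold. Hmox1 was 1.21-fold (1.17 to 1.25) higher in the Egr2fl/fl mouse and 2.02-fold (1.96 to 2.10) in the Lyz2Cre/+.Egr2fl/fl mouse. Tfrc had ratios of 1.46 (1.15 to 1.87) and 2.87 (2.22 to 3.77). Cd163 had ratios of 1.08 (0.75 to 1.57) and 1.00 (0.73 to 1.37), intervals that leave room for a difference of 1.5-fold in the Egr2fl/fl mouse only. The size of the Slc40a1 ratio depended on the setting, from 6.65 in thinned cells to 100 with values from 1 to 4 set to 0 in the Egr2fl/fl mouse and from 10.2 to 65.5 in the other. Blvrb ratios ran from 5.78 to 10.9 and from 4.39 to 6.885. Tfrc was past 1.5-fold in 3 of 11 settings in the Egr2fl/fl mouse, with a highest ratio of 1.67, and in 10 of 11 in the other, from 1.42 in classes of Seurat clusters to 12.3.

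The CDA-HFD macrophages were further divided into cells with markers of monocyte-derived Kupffer cells (moKC-like macrophages, 237 and 350 cells) and the other macrophages (1110 and 1135 cells). Of the 8 genes Slc40a1 differed most between them, at 282 against 41.3 CPM in the Egr2fl/fl mouse and 260 against 49.1 CPM in the Lyz2Cre/+.Egr2fl/fl mouse. These are ratios of 6.83 (6.32 to 7.38) and 5.31 (4.93 to 5.71). Thinned to 5000 counts, 53.3% and 42.04% of moKC-like macrophages had a count of Slc40a1, against 9.54% and 12.0% of the other macrophages. The storage genes went the other way. Fth1 stood at 11140 against 18060 CPM and at 10450 against 15550 CPM, ratios of 0.62 and 0.67, and Ftl1 had ratios of 0.81 and 0.845. Hmox1 did not separate the cells, with ratios of 0.92 (0.89 to 0.97) and 1.03 (0.99 to 1.07), and neither did Blvrb, with 0.94 and 0.95. Cd163 remained at 2.44 and 6.86 CPM in moKC-like macrophages, far below the ND Kupffer cells, with ratios to the other macrophages of 0.72 (0.39 to 1.25) and 3.03 (2.05 to 4.51), and Tfrc had ratios of 1.335 (1.0 to 1.76) and 1.51 (1.20 to 1.89). In all, 1 gene was past 1.5-fold upwards and 1 downwards in the Egr2fl/fl mouse, and 3 upwards and 0 downwards in the Lyz2Cre/+.Egr2fl/fl mouse, with 17.8% and 15.1% of all genes past 1.5-fold. Slc40a1 was past it in all 11 alternative settings in each mouse, Fth1 in all 11 in the Egr2fl/fl mouse and Cd163 in all 9 in the other, but other genes crossed it. In the Lyz2Cre/+.Egr2fl/fl mouse Tfrc was past it in 7 of 11, from 1.09 to 1.71, and Fth1 came past it downwards in 2 of 11, with a lowest ratio of 0.61. In the Egr2fl/fl mouse Cd163 came past it downwards in 3 of 9, with a lowest ratio of 0.58, and Tfrc upwards in 1 of 11, at 2.07. The moKC-like cells were deeper, with a median of 27050 and 23170 counts per cell against 20530 and 17770, and the part of depth in these ratios was not tested beyond the thinned cells, in which Slc40a1 stayed past 1.5-fold.

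**Figure D2:**
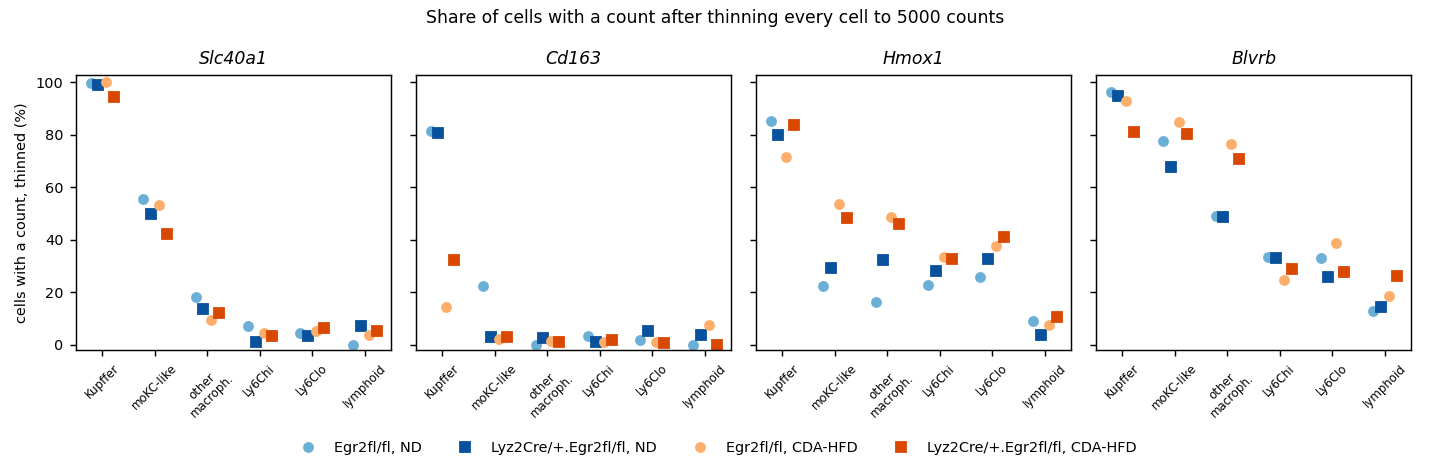
Share of cells with at least 1 count (y axis, percent) of Slc40a1, Cd163, Hmox1 and Blvrb in 6 cell classes (x axis) after each cell was thinned to 5000 counts, with 1 point per mouse. Slc40a1 steps down from Kupffer cells (94.6% to 100%) through moKC-like macrophages (42.04% to 55.6%) to the other macrophages (9.54% to 18.4%), whereas Cd163 is at 81.7% and 80.8% in the Kupffer cells of the ND-fed mice and at 32.4% or less in the other points.

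The class that held most counts of each gene differed between the diets. On ND, Kupffer cells held 95.6% and 92.6% of all Slc40a1 counts of the mouse, 93.5% and 92.7% of Hmox1, 95.5% and 94.8% of Cd163 and 88.8% and 91.3% of Blvrb. They held less of the ferritin counts, 65.0% and 72.3% for Fth1 and 78.0% and 81.9% for Ftl1. On CDA-HFD, macrophages held 55.6% and 54.9% of Slc40a1, 47.5% and 52.4% of Hmox1, 70.6% and 66.6% of Blvrb, 49.2% and 46.3% of Fth1 and 56.5% and 54.1% of Ftl1. They also held 58.3% and 53.2% of Slc11a1 but less of Tfrc, 32.2% and 39.6%. Cd163 counts were spread, with 25.7% and 24.4% in macrophages, 25.2% and 20.4% in dendritic cells and 3.45% and 24.0% in Kupffer cells. The 17 and 38 Kupffer cells of the CDA-HFD-fed mice still held 12.0% and 15.9% of the Slc40a1 counts. Over all cells of a mouse together, Slc40a1 stood at 1273, 1220, 59.8 and 68.0 CPM and Cd163 at 414, 526, 4.42 and 5.004 CPM. Hmox1 stood at 770, 750, 321 and 296 CPM, and Fth1 at 6358, 5537, 12040 and 10420 CPM. These sums follow the cells that the CD11b sort and the loading passed on, so they are not levels of the liver.

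**Figure D3:**
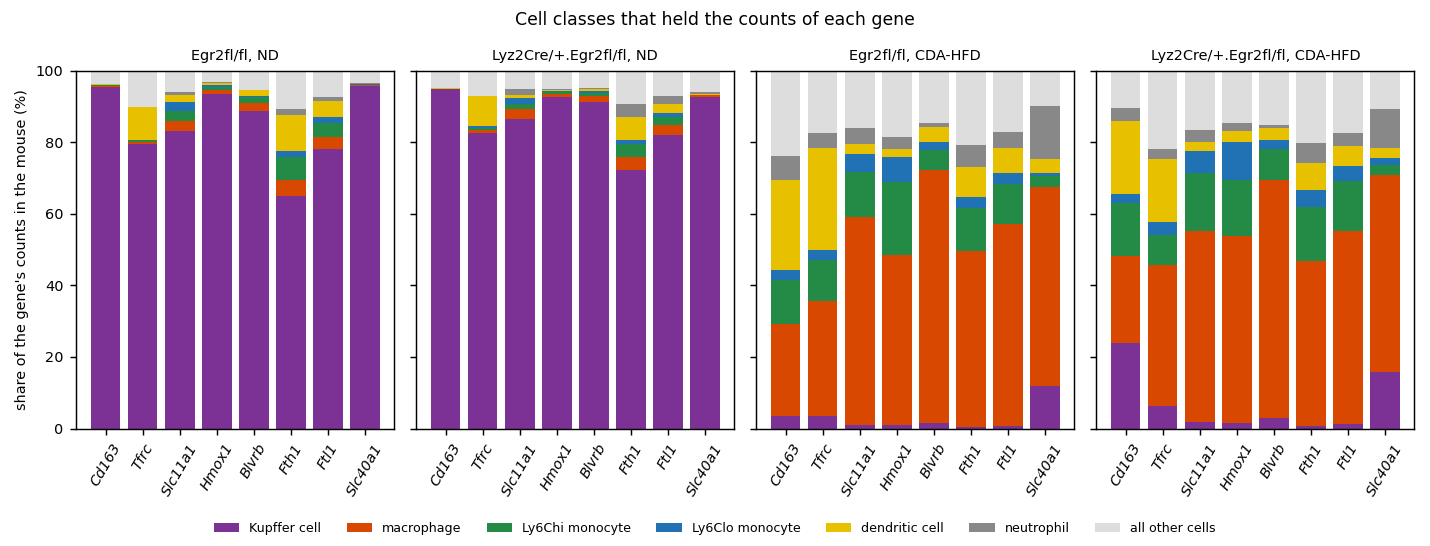
Share of each gene's counts (y axis, percent, from 0 to 100) that came from each cell class, stacked per gene (x axis) in 1 panel per mouse. Kupffer cells hold 65.0% to 95.6% of the counts of every gene in the ND-fed mice and at most 24.0% in the CDA-HFD-fed mice.

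The diet comparison within macrophages asks whether the genes differ between ND and CDA-HFD in cells of 1 class. In the Egr2fl/fl pair of mice 5 of 8 genes were at least 1.5-fold higher on CDA-HFD and 2 lower, and in the Lyz2Cre/+.Egr2fl/fl pair 5 were higher and 1 lower. Of all genes, 44.7% and 46.4% lay past 1.5-fold, more of them downwards (3121 and 3159) than upwards (2186 and 2392), with a median ratio of 0.95 and 0.94. The members' medians were 1.71 and 1.82. Fth1 was 2.08-fold (2.04 to 2.13) and 2.46-fold (2.40 to 2.53) higher on CDA-HFD, and Ftl1 2.08-fold (2.04 to 2.12) and 1.97-fold (1.93 to 2.01). Hmox1 was 1.88-fold (1.66 to 2.13) and 3.17-fold (2.68 to 3.78) higher, and Blvrb 1.55-fold and 1.67-fold. Blvrb stayed past 1.5-fold in 11 and 9 of 12 settings, and Hmox1 in 11 of 12 in each pair, with ranges of 1.04 to 4.52 and 1.34 to 4.92. Slc11a1 had ratios of 1.496 (1.32 to 1.70), just under the fold used, and 1.41 (1.23 to 1.62). It was past 1.5-fold upwards in 5 of 12 settings in the Egr2fl/fl pair and in 4 of 12 in the other, with highest ratios of 2.19 and 2.05, so that the count of 5 genes holds for the setting used. Cd163 had ratios of 0.10 (0.068 to 0.15) and 0.68 (0.28 to 2.13), and Tfrc was past 1.5-fold in both, with 4.98 (1.36 to 41.3) and 2.08 (0.88 to 6.44) on 2 and 5 ND counts. The second of these was past 1.5-fold in 6 of 10 settings, with a lowest ratio of 1.02 under the stricter gate. The ferritin chains, at 1.82 and 1.65 for Fth1 and 1.90 and 1.56 for Ftl1, were the genes that stayed past 1.5-fold in the same direction in both genotypes when macrophages were limited to the cluster led by Tmem119, where Hmox1 stood at 2.97 and 1.34, Blvrb at 1.17 and 1.24, Tfrc at 3.637 and 1.45 and Slc40a1 at 0.83 and 0.85. Cd163 stood there at 0.067 and 3.88, past 1.5-fold in opposite directions, and over all settings its ratio in the Lyz2Cre/+.Egr2fl/fl pair ran from 0.026 to 3.88.

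Slc40a1 over all macrophages was lower on CDA-HFD, with ratios of 0.61 (0.52 to 0.71) and 0.62 (0.53 to 0.73). The macrophages of the diets also differed in make-up, and the part of make-up in these ratios was not tested. The moKC-like cells, which are rich in Slc40a1, were 32 of 86 and 35 of 73 macrophages on ND and 237 of 1347 and 350 of 1485 on CDA-HFD. The 10 genes of the moKC marker list summed in all macrophages to 1322 and 2884 CPM on ND and to 761 and 1048 CPM on CDA-HFD. Within the moKC-like cells Slc40a1 stood at 350.1 CPM (296.5 to 411) and 342 CPM (289 to 402.5) on ND and at 282 CPM (269 to 295) and 260.5 CPM (249.9 to 271) on CDA-HFD. There it was lower on CDA-HFD in both genotypes, with intervals that did not overlap. In the other macrophages it stood at 35.7 CPM (23.3 to 52.3) and 39.9 CPM (24.7 to 60.95) on ND and at 41.3 CPM (38.7 to 43.9) and 49.1 CPM (46.2 to 52.1) on CDA-HFD, so it was not lower there, and the intervals of the diets overlapped. Scaling by TMM factors raised all ratios by 0.28 log2 units in both genotypes, after which Slc40a1 stood at 0.74 and 0.76 and was no longer past 1.5-fold. It was past 1.5-fold in 7 of 12 settings in each genotype. It was also within 1.5-fold without the highest Scrublet doublet scores (0.76 and 0.73) and with values from 1 to 4 set to 0 (0.67 and 0.72), and in 1 genotype each at 90% own hashtag (0.68) and in thinned cells (0.68). Other settings moved it further down, to 0.26 and 0.33 in classes of Seurat clusters, 0.33 and 0.31 under the stricter gate and 0.36 and 0.53 as a mean over cells.

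In Ly6Chi monocytes 2 genes were at least 1.5-fold higher and 1 lower on CDA-HFD in the Egr2fl/fl pair, and 5 higher and 0 lower in the Lyz2Cre/+.Egr2fl/fl pair, with 29.6% and 35.5% of all genes past 1.5-fold. Hmox1 was 4.07-fold (3.53 to 4.72) and 2.06-fold (1.72 to 2.48) higher. Fth1 was 1.39-fold (1.36 to 1.41) and 1.58-fold (1.54 to 1.62) higher, and Ftl1 1.41-fold (1.38 to 1.43) and 1.54-fold (1.499 to 1.575). Blvrb had ratios of 0.67 (0.60 to 0.76) and 0.91 (0.77 to 1.07). The first ran from 0.55 to 1.33 over the settings, past 1.5-fold downwards in 2 of 11 and above 1 in classes of Seurat clusters. Slc11a1 had ratios of 1.27 and 1.85, the first with a range of 0.92 to 2.27. The other genes had few counts on ND: Tfrc had ratios of 4.40 (1.46 to 21.7) and 1.08 (0.40 to 4.09), Cd163 of 0.55 (0.29 to 1.14) and 0.82 (0.33 to 2.60), and Slc40a1 of 0.86 (0.56 to 1.39) and 1.52 (0.72 to 3.84). The calls depended on the setting. Fth1 and Ftl1 in the Egr2fl/fl pair were each past 1.5-fold in 2 of 11 settings, with highest ratios of 2.496 and 1.61, and Ftl1 in the Lyz2Cre/+.Egr2fl/fl pair came to 1.42 under the stricter gate. The Slc40a1 ratio of the Lyz2Cre/+.Egr2fl/fl pair kept its call in 6 of 10, from 0.84 to 3.84, and that of the Egr2fl/fl pair ran from 0.52 to 1.375. In the Lyz2Cre/+.Egr2fl/fl pair Cd163 fell as low as 0.14 and Tfrc ran from 0.73 to 1.75, and in the Egr2fl/fl pair Tfrc ran from 1.77 to 4.79. Markers of macrophages moved with diet in the same sums: the monocyte-derived macrophage list went from 3621 to 6253 CPM and from 3286 to 9262 CPM, and the list of hepatic lipid-associated macrophages from 576 to 1369 CPM and from 586 to 1492 CPM. Their part in these ratios was not tested.

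In Ly6Clo monocytes 6 genes had enough counts. Of these 4 were at least 1.5-fold higher in the Egr2fl/fl pair and 3 in the Lyz2Cre/+.Egr2fl/fl pair, with none lower, against 32.6% and 38.2% of all genes past 1.5-fold. Hmox1 was 3.16-fold (2.72 to 3.70) and 5.01-fold (3.98 to 6.42) higher, Fth1 2.62-fold (2.53 to 2.71) and 3.18-fold (3.03 to 3.34), and Ftl1 1.74-fold in both. Blvrb had ratios of 1.74 (1.42 to 2.14) and 0.89 (0.72 to 1.12), Slc11a1 of 1.27 and 1.15, and Slc40a1 of 0.72 (0.42 to 1.29) and 1.22 (0.67 to 2.42). The Blvrb call did not hold throughout: in the Egr2fl/fl pair the ratio came to 1.05 in classes of Seurat clusters and 1.455 under the stricter gate, and in the Lyz2Cre/+.Egr2fl/fl pair to 0.57 and 0.62, past 1.5-fold downwards. In the latter pair Slc40a1 was past 1.5-fold upwards in 4 of 9 settings, with a range of 0.92 to 2.52, Slc11a1 in 1 of 11, at 2.00, and Ftl1 came to 1.46 in classes of Seurat clusters. Hmox1 ranged from 2.73 to 7.70 and from 2.97 to 8.08. Hmox1 was thus past 1.5-fold upwards in all 6 diet comparisons, Fth1 in 5 of 6 and Ftl1 in 5 of 6. Other markers moved with diet in the same Ly6Clo sums. The hepatocyte list went from 297 to 765 CPM and from 252 to 970 CPM, most of it Hp, and its 9 other genes from 129 to 179 CPM and from 116 to 159.5 CPM. The list of hepatic lipid-associated macrophages went from 792 to 1506 CPM and from 1012 to 1520 CPM. The Ly6Clo list itself went from 6733 to 4617 CPM and from 6943 to 4415 CPM, which on CDA-HFD was below the Ly6Chi list (5866 and 6381 CPM). Without the tenth of cells richest in hepatocyte and haemoglobin counts, Hmox1 in Ly6Clo monocytes stood at 2.73 and 5.15 and Fth1 at 2.39 and 3.17. That filter counts Hp, which made up most of the hepatocyte list in these monocytes, so it does not measure hepatocyte RNA in them. The part of the other lists in these ratios was not tested. In classes taken from Seurat clusters, Hmox1 in macrophages of the Egr2fl/fl pair stood at 1.04.

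**Figure D4:**
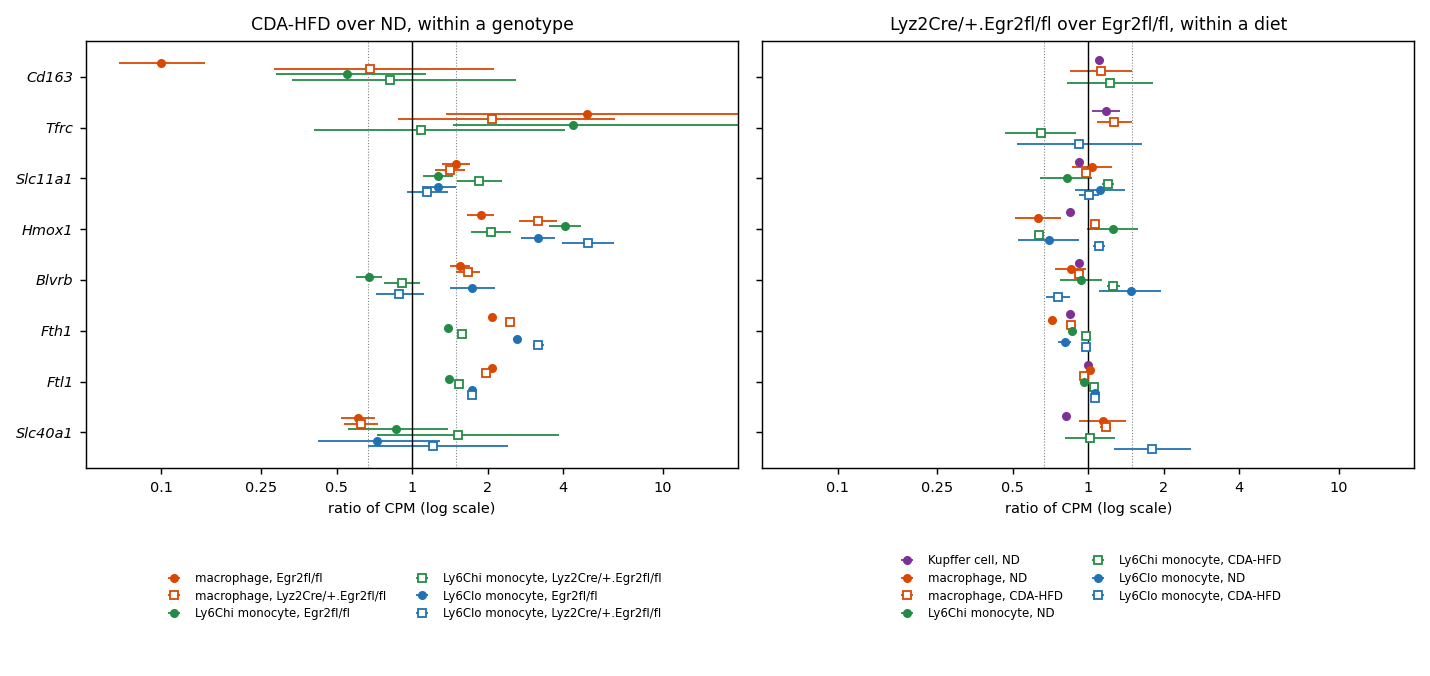
Ratios of CPM (x axis, log scale) of CDA-HFD over ND within a genotype (left) and of Lyz2Cre/+.Egr2fl/fl over Egr2fl/fl within a diet (right) for the genes (y axis) with at least 50 summed counts, with exact binomial 95% intervals, 2 of which run past the axis for Tfrc; dotted lines mark 1.5-fold either way. Hmox1, Fth1 and Ftl1 lie to the right of 1 in every diet comparison (1.39 to 5.01), while most genotype ratios lie between the dotted lines.

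Because few Kupffer cells were sorted on CDA-HFD, the main macrophage population of each diet was also set side by side, CDA-HFD macrophages over ND Kupffer cells, a comparison in which diet and cell class cannot be told apart. In each genotype 1 of 8 genes was at least 1.5-fold higher and 5 lower, with 43.0% of all genes in the Egr2fl/fl pair and 40.3% in the Lyz2Cre/+.Egr2fl/fl pair past 1.5-fold. Slc40a1 stood at ratios of 0.044 (0.042 to 0.046) and 0.063 (0.061 to 0.066), Hmox1 at 0.34 and 0.43, Blvrb at 0.60 in both, and Tfrc at 0.36 and 0.38. Cd163 was at 0.0046 and 0.0047. Fth1 was 2.31-fold (2.29 to 2.32) and 2.32-fold (2.30 to 2.33) higher, and Ftl1 1.45-fold and 1.40-fold. The 6 calls of each genotype held in all 11 settings, with Cd163 between 0.00029 and 0.0064, and Ftl1 came past 1.5-fold under TMM factors, at 1.57 and 1.53. The CDA-HFD macrophages thus carried more mRNA of the ferritin heavy chain and less of the exporter, the haemoglobin receptor, the transferrin receptor and both heme breakdown genes. The 17 and 38 Kupffer cells of the CDA-HFD-fed mice, set against those of the ND-fed mouse of their genotype, had ratios of 0.57 and 0.59 for Slc40a1, 0.47 and 0.38 for Hmox1, 0.037 and 0.15 for Cd163, 0.82 and 1.02 for Fth1, and 2.37 and 1.93 for Tfrc.

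The genotype comparison asks whether deletion of Egr2 by Lyz2-Cre goes with a difference in these genes. In ND Kupffer cells, on 18430307 and 18311221 counts in total, none of the 8 genes was past 1.5-fold, with 8.81% of all genes past it. Egr2 itself was low in these cells, at 4.9 and 1.0 CPM. Slc40a1 had a ratio of Lyz2Cre/+.Egr2fl/fl to Egr2fl/fl of 0.81 (0.80 to 0.82), Hmox1 of 0.84 (0.83 to 0.86), Fth1 of 0.85 (0.84 to 0.85), Cd163 of 1.10 (1.08 to 1.13) and Ftl1 of 1.00 (0.99 to 1.00). In CDA-HFD macrophages also none was past 1.5-fold, with 8.68% of all genes past it. Slc40a1 had a ratio of 1.17 (1.12 to 1.23), Hmox1 of 1.06 (1.04 to 1.09), Fth1 of 0.85 (0.85 to 0.85), Ftl1 of 0.96 (0.96 to 0.96) and Blvrb of 0.92 (0.90 to 0.94). Fth1 was the lower in the Lyz2Cre/+.Egr2fl/fl mouse in all 7 genotype comparisons, with ratios from 0.72 to 0.98, none past 1.5-fold. Under the alternative settings it reached 1.002 in Ly6Chi and 1.20 in Ly6Clo monocytes of the CDA-HFD-fed mice, and 0.64, past 1.5-fold, in ND macrophages taken from Seurat clusters.

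In the smaller ND macrophage sums 6 genes had enough counts and 1 was past 1.5-fold, with 24.8% of all genes past it. This was Hmox1, at a ratio of 0.63 (0.51 to 0.78), which turned to 1.69 under the stricter gate and 1.65 where 90% of hashtag counts had to be the cell's own. In Ly6Chi monocytes 0 of 5 genes on ND and 2 of 8 on CDA-HFD were past 1.5-fold, with 23.0% and 9.0% of all genes past it. The 2 genes were Hmox1, at a ratio of 0.63 (0.61 to 0.66), and Tfrc, at 0.65 (0.47 to 0.89), both lower in the Lyz2Cre/+.Egr2fl/fl mouse, and each came within 1.5-fold under 5 alternative settings. For Hmox1 these gave ratios of 0.67 to 0.79, so the direction held. For Tfrc they gave 0.68 to 1.03, the last in classes of Seurat clusters, where the direction was lost. In Ly6Clo monocytes 0 of 5 genes on ND and 1 of 7 on CDA-HFD were past 1.5-fold, with 23.9% and 14.3% of all genes past it. The gene was Slc40a1, at 1.79 (1.27 to 2.57), on 115 and 47 counts, of which 5 cells held 65.2% and 46.8%. It was below 1 as a mean over cells (0.88) and in Seurat clusters (0.63), and reached 5.06 at the highest. Kupffer cell markers moved the same way in these CDA-HFD Ly6Clo sums. The resident Kupffer cell list stood at 29.55 CPM in the Egr2fl/fl and 94.29 CPM in the Lyz2Cre/+.Egr2fl/fl mouse, and the moKC list at 51.47 and 127.1 CPM. Their part in the Slc40a1 ratio was not tested. Genotype ratios within 1.5-fold also came past it under some settings. On ND these were Blvrb in Ly6Clo monocytes (1.475, past it in 4 of 11 settings, at most 2.02), Hmox1 in Ly6Clo monocytes (0.697, at lowest 0.53) and in Ly6Chi monocytes (1.25, at most 1.76), Slc11a1 in Ly6Chi monocytes (0.82, at lowest 0.43) and Slc40a1 in macrophages (1.14, at most 1.57). On CDA-HFD it was Blvrb in Ly6Clo monocytes (0.76, at lowest 0.64).

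The other genes of iron and heme metabolism were taken from a list of 59 genes that holds the 8, of which 58 were in the matrix. Of the 46 other list genes with enough counts in each diet comparison of macrophages, 12 were at least 1.5-fold higher and 5 lower on CDA-HFD in the Egr2fl/fl pair, and 19 higher and 6 lower in the Lyz2Cre/+.Egr2fl/fl pair, where 44.7% and 46.4% of all genes lay past 1.5-fold. Their median ratios were 1.01 and 1.23, against 0.95 and 0.94 over all genes. In macrophages the genes described next were past 1.5-fold in the same direction in both genotypes on at least 500 counts. Slc48a1, which carries heme out of the phagolysosome, stood at 57.8, 66.3, 142 and 107 CPM, ratios of 2.46 (1.93 to 3.18) and 1.62 (1.26 to 2.11). Alas1, the first enzyme of heme synthesis, stood at 42.3, 18.9, 135 and 67.3 CPM, ratios of 3.195 and 3.56. Por, the reductase that supplies heme oxygenase with electrons, had ratios of 1.91 (1.42 to 2.65) and 4.99 (3.11 to 8.58). Nr1h3, the nuclear receptor LXRα, had 1.565 and 1.78, the iron transporter Slc11a2 1.71 (0.99 to 3.23) and 9.08 (2.50 to 75.1), and Hp, which encodes haptoglobin, 4.29 and 2.30. Cpox, a later enzyme of heme synthesis, was the only one of these to be lower, with ratios of 0.47 and 0.55.

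In Ly6Chi monocytes 8 of 40 other list genes were at least 1.5-fold higher and 6 lower on CDA-HFD in the Egr2fl/fl pair. In the Lyz2Cre/+.Egr2fl/fl pair 8 of 42 were higher and 7 lower, with 29.6% and 35.5% of all genes past 1.5-fold. In Ly6Clo monocytes 5 of 33 were higher and 5 lower in the first pair, and 11 of 35 higher and 3 lower in the second. Of all genes, 32.6% and 38.2% lay past 1.5-fold there. The transcription factor Nfe2l2 (NRF2), a known activator of Hmox1 and the ferritin genes, was higher on CDA-HFD in both monocyte classes and genotypes. Its ratios were 2.61 (2.32 to 2.93) and 1.67 (1.45 to 1.93) in Ly6Chi and 1.93 (1.69 to 2.21) and 1.92 (1.60 to 2.31) in Ly6Clo monocytes. Hp followed with ratios of 1.60 and 1.60 in Ly6Chi and 3.50 and 5.97 in Ly6Clo monocytes. Hp is also a major transcript of hepatocytes. The 9 other genes of the hepatocyte list in the matrix summed to 164, 223, 202 and 198 CPM in Ly6Chi and to 129, 116, 179 and 159.5 CPM in Ly6Clo monocytes, against 449, 487, 717 and 777 CPM and 167.5, 136, 586.5 and 811 CPM of Hp. Ireb2, which encodes iron regulatory protein 2, was lower in Ly6Chi monocytes, at 0.59 (0.44 to 0.79) and 0.50 (0.36 to 0.73). Nr1h3 had ratios of 3.87 (2.36 to 6.77) and 1.78 (1.13 to 2.95) in Ly6Clo monocytes. Between the genotypes, 2 of 24 other list genes in macrophages were at least 1.5-fold higher and 4 lower on ND. On CDA-HFD 1 of 46 was higher and 2 lower, with 24.8% (ND) and 8.68% (CDA-HFD) of all genes past 1.5-fold. Alas1 in macrophages was the single other list gene past 1.5-fold in the same direction in both diets on at least 500 counts. Its ratios were 0.45 (0.25 to 0.78) on ND and 0.50 (0.47 to 0.53) on CDA-HFD.

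**Figure D5:**
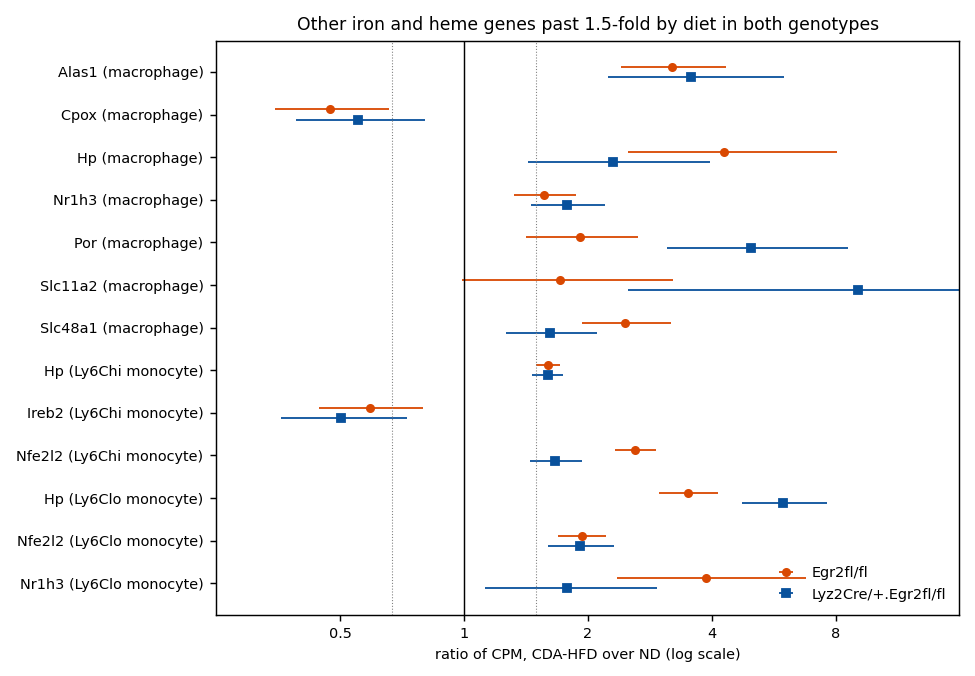
Ratios of CPM (x axis, log scale) of CDA-HFD over ND for other iron and heme genes (y axis, with the cell class) that lay past 1.5-fold in the same direction in both genotypes, with exact binomial 95% intervals, 1 of which runs past the axis for Slc11a2, and dotted lines at 1.5-fold either way. Of the genes shown, Cpox in macrophages and Ireb2 in Ly6Chi monocytes lie below 1 (0.47 to 0.59), and all others lie above.

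The genes whose levels were most alike over the 23 sums of a class in a mouse with at least 50 cells, among 11298 genes with at least 500 counts, differed between the members. Pearson's r of log2(CPM + 1) is given as a description, since the sums share libraries and many genes follow the classes. Cd163 was most like Tsku (r = 0.94), Timd4 (0.94) and Hbb-bs (0.93). Slc40a1 was most like Tmem140, Tlr4 and P2ry13 (0.91, 0.91 and 0.90), Hmox1 most like Lamp2, Slc11a1 and Ly96 (0.90, 0.89 and 0.87), and Blvrb most like Pla2g15, Lgmn and Abca1 (0.95, 0.94 and 0.93). Slc11a1 was most like Atp6ap1, Lamp2 and Ftl1 (0.93, 0.92 and 0.91), Fth1 most like Lilr4b, Cd14 and Lilrb4a (0.92, 0.89 and 0.88), and Tfrc most like Ppp1r13b, Ankrd50 and Ppfibp1 (0.88, 0.78 and 0.77). Ftl1 was most like its own copies Ftl1-ps1, Ftl2-ps and Gm15590 (1.00, 1.00 and 0.99), which may share its reads. Between members, Slc11a1 and Ftl1 (0.91), Hmox1 and Slc11a1 (0.89), Hmox1 and Ftl1 (0.84) and Fth1 and Ftl1 (0.82) were the closest pairs, while Slc40a1 and Hmox1 reached 0.56.

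From cell to cell within a class, at 5000 counts per cell, the ferritin chains went together, with Spearman's rho of 0.52 and 0.44 over ND Kupffer cells and 0.61 and 0.59 over CDA-HFD macrophages. Hmox1 and Ftl1 had 0.36 and 0.22 in Kupffer cells and 0.33 and 0.37 in macrophages. Slc40a1 and Hmox1 had 0.25 and 0.28 in Kupffer cells and 0.13 and 0.15 in macrophages, and Slc40a1 and Fth1 had -0.05 and -0.09 and then -0.08 and -0.05. These are descriptions over 714 and 770 Kupffer cells and 1309 and 1446 macrophages of 1 mouse each.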

How the data were processed

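The mRNA libraries (BD Rhapsody, TAS-Seq) held liver CD11b+ cells of 4 hashtagged mice. The deposited matrix holds whole-number counts per gene and barcode, which the authors made from the sequenced libraries before demultiplexing the hashtags. Whether reads or molecules were counted is not given in the sources used here. The submitters' processing notes name Seurat 4.1.1, R 4.2.1 and the build GRCm38. For 34 genes, among them Ftl1, no value from 1 to 4 occurs in the matrix. Of 16786 barcodes, 1392 that the authors named doublets were left out, as were 10 cells over 25% mitochondrial counts, which left 15384. The 7 hashtag columns of no mouse were not used.

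Each cell was scored on marker lists (the mean of log-scaled, capped marker levels) and given the class whose cut-off it passed, cells passing several cut-offs being left out, and moKC-like macrophages were cut from the macrophages by a score, with 743 macrophages within 0.05 of that cut-off. Counts were summed by class and mouse as CPM with exact Poisson intervals, ratios have exact binomial intervals of the split of the summed counts, and shares were also taken in cells thinned to 5000 counts. A ratio was called past 1.5-fold where the gene had at least 50 summed counts, and no test was made because each group is 1 mouse. Clusters were made with Seurat 5.3.0 (R 4.3.3), TMM factors with edgeR 4.0.16 and doublet scores with Scrublet in scanpy 1.11.5; intervals used scipy 1.17.1 in Python 3.11.15. The summing and the intervals were checked on simulated data. Of the other iron and heme genes, those with at least 500 counts past 1.5-fold in the same direction in both genotypes, or in both diets, were named, and for each of the 8 genes the 3 most alike; 2 genes that met the rule are not reported here. The members and lists were chosen with earlier results of these data known. The alternatives changed the scaling, the averaging, the gate, the hashtag purity, the depth, the mitochondrial limit, the low values and the cells kept.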

Additional observations from a re-analysis of the deposited data

Results flagged for a closer look

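For 4 pairs of genotype ratios (Lyz2Cre/+.Egr2fl/fl over Egr2fl/fl), the ND-fed and CDA-HFD-fed mice lay on opposite sides of 1 with counting intervals that exclude 1. The difference between the diets was not tested in any of them, since each ratio compares 1 mouse with 1 mouse. For Hmox1 in macrophages it was 0.6306 (ND) against 1.064 (CDA-HFD), and for Hmox1 in Ly6Clo monocytes 0.697 against 1.104. For Ftl1 in Ly6Chi monocytes the ratios were 0.9658 (ND) and 1.056 (CDA-HFD), and for Blvrb in Ly6Clo monocytes 1.475 and 0.7559. Of these ratios 1, that of Hmox1 in ND macrophages, lay past 1.5-fold, on 263 and 136 counts, and it ran from 0.449 to 1.691 over the settings tried. Its partner on CDA-HFD ran from 0.959 to 1.15. Hmox1 in Ly6Clo monocytes ran from 0.529 to 1.459 on ND and from 0.8828 to 1.314 on CDA-HFD, so the opposite directions did not hold under every setting for Hmox1 in either class. Ftl1 in Ly6Chi monocytes stayed below 1 on ND (0.8991 to 0.9981) and above it on CDA-HFD (1.023 to 1.072). Blvrb in Ly6Clo monocytes stayed above 1 on ND (1.391 to 2.016, past 1.5-fold in 4 of 11 settings) and below it on CDA-HFD (0.6421 to 0.8813).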

How the results depend on the processing

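No paired analysis was possible because the labels give no replicate numbers and each group is 1 mouse. Over 12 settings, 1553 of 1670 recomputed ratios kept their call, 52 lost it, 62 gained one, and 6 called ratios, some of them among those lost, changed direction. Of the 44 diet ratios tested, 28 lay past 1.5-fold, and 24 to 30 did under the other settings, which the macrophage alternative below does not include. Of 16 diet ratios in macrophages, 13 lay past it, and 8 did in the cluster led by Tmem119 alone, an alternative chosen after seeing the data. Of the 47 genotype ratios, 4 lay past 1.5-fold, against 2 as a mean over cells, 2 without the highest Scrublet scores, 2 without the cells richest in hepatocyte and haemoglobin counts, 1 in thinned cells and 7 with at least 90% own hashtag. As a mean over cells, the diet ratio of Slc40a1 in Ly6Chi monocytes of the Lyz2Cre/+.Egr2fl/fl pair turned to 0.8356 and its genotype ratio in CDA-HFD Ly6Clo monocytes to 0.8836. In classes of Seurat clusters the latter was 0.6295, and the genotype ratio of Tfrc in CDA-HFD Ly6Chi monocytes 1.032. The genotype ratio of Hmox1 in ND macrophages turned to 1.691 under the stricter gate and to 1.652 with at least 90% own hashtag. The cause was not tested for any of these. TMM factors shifted all log2 diet ratios by 0.12 to 0.29 upwards, with no called direction turned. Ratios against a sum of 0 counts could not be formed under some settings and are not counted. Depth limits Cd163 outside Kupffer cells and Slc40a1 in monocytes, where few lymphoid cells give the background, and Tfrc, which had 2 and 5 counts in ND macrophages.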
